A study of Mus musculus with 24 samples.

Results

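The 9 genes described here encode the AP-1 and BATF transcription factors named in a fixed list, the FOS proteins (Fos, Fosb, Fosl1 and Fosl2), the JUN proteins (Jun, Junb and Jund) and the BATF proteins (Batf and Batf3). They were chosen by name, and the row of each of the 9 was found in every library among 23420 gene rows. AP-1 factors are leucine zipper proteins that bind DNA as pairs. FOS and BATF proteins pair with JUN proteins, JUN proteins also pair with each other, and BATF:JUN pairs bind DNA together with IRF4 or IRF8. In T cells, AP-1 cooperates with NFAT at cytokine genes after T cell receptor and CD28 stimulation, and BATF is required for effector differentiation of CD8+ T cells.

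RNA was measured in CD8+ T cells of 6 OTI mice, animals that carry a transgenic T cell receptor of 1 specificity. In the Tcf7 cKO group (mice 1, 2 and 3; E8i-cre positive, Tcf7FL/FL, OTI positive) a Cre recombinase driven by a CD8 enhancer acts on a floxed Tcf7, the gene of the transcription factor TCF1. The WT group (mice 4, 5 and 6) has the same Tcf7FL/FL and OTI alleles without the Cre, so that both groups carry the floxed allele. Cells enriched from spleen and lymph nodes were sampled at 0 h, then plated on anti-CD3 and anti-CD28 (1 µg/mL) with IL2 (6 ng/mL) and sampled at 4, 8 and 24 h, with 1000 sorted cells a library, 3 libraries in each of the 8 genotype-by-time groups and 24 libraries in all. The age of the mice is not given in the sources used here.

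The bases before the start sites of Fos, Jun and Junb, the 3 FOS and JUN genes with the most RNA before plating and with 3 different courses after it, are shown first. The sequences are from RefSeq (GRCm38.p6), where 8 of the 9 members had an entry and Fosl1 had none, and each is the 250 bases before the start, 5′ to 3′ on the strand of the gene. They lie at chr12:85473640-85473889 (plus strand) for Fos, chr4:95052223-95052472 (minus strand) for Jun and chr8:84978749-84978998 (minus strand) for Junb. Capitals mark the letters that matched a searched motif, TGACGT in Fos and TGACATCA in Jun, and Junb had no match.
Fos: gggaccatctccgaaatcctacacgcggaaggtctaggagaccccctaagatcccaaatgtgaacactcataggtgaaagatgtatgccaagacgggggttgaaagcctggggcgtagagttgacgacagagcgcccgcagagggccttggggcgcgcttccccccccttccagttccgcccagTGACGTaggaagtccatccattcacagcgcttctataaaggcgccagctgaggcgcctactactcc
Jun: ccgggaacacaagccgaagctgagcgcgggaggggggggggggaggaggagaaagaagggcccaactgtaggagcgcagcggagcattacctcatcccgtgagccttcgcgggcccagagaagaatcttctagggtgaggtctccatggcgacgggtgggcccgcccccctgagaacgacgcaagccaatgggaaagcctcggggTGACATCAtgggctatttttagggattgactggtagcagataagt
Junb: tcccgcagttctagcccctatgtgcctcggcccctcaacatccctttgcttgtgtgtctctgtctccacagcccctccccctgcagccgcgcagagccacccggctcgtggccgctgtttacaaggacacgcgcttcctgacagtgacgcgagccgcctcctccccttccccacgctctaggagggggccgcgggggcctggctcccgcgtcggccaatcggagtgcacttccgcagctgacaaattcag
The letters searched on both strands were the cAMP response element core TGACGTCA, its half-site TGACGT, the AP-1 element TGANTCA, its form with 1 more base TGANNTCA, and CTTTGA, the core letters that TCF/LEF proteins bind. TGACGTCA holds both TGACGT and a TGANNTCA match, so these motifs overlap. Fos matched TGACGT at -66 to -61 relative to its start, and Batf matched the same letters at -98 to -93. Jun matched TGANNTCA at -45 to -38 and Jund matched it at -61 to -54, as TGAAATCA. Among 32817 RefSeq promoters, 6.46% held TGACGT and 11.9% held TGANNTCA. No member with an entry held TGACGTCA, TGANTCA or CTTTGA, which 1.55%, 6.75% and 13.8% of all promoters held.

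In GENCODE M21 on GRCm38 (mm10) Fos lies at chr12:85473890-85477273 and Batf at chr12:85686669-85709087, both on the plus strand and 209.4 kb apart. Jdp2, the gene of another leucine zipper protein, lies between them at chr12:85599027-85639878. Junb (chr8:84974484-84978718, minus strand) and Jund (chr8:70698949-70700616, plus strand) share a chromosome. Jun is at chr4:95049034-95052222 (minus strand), Fosb at chr7:19302696-19310051 (minus strand), Fosl1 at chr19:5447547-5455946 (plus strand), Fosl2 at chr5:32135801-32157842 (plus strand) and Batf3 at chr1:191097847-191108945 (plus strand). All are protein-coding genes. The exons of Fosl1 share 57.2% of their bases with Ccdc85b on the opposite strand, and those of Junb share 7.52% with Prdx2, which had 147 to 180.0 TPM at 0 h and 341 to 365 TPM at 24 h. Smart-seq2 libraries do not mark the strand, so reads in shared bases cannot be assigned by strand. Ccdc85b had 1.75 to 5.33 TPM at 0 h, where every library had 0 counts of Fosl1, then 3.45 to 12.5 TPM at 4 h, 3.5 to 9.73 TPM at 8 h and 9.21 to 10.85 TPM at 24 h. Jund shares 52.6% of its exonic bases with the gene model Gm11175 and Jun shares 7.28% with Junos, neither of which was analysed here.

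The libraries held 5846265 to 9700397 expected counts, with a count for 13694 to 17214 genes. Rn45s, the ribosomal RNA precursor, took 14.2% to 20.6% of the counts at 0, 4 and 8 h and 7.39% to 9.54% at 24 h. Tcf7 RNA counted over the whole gene was not lower in cKO at the first 3 times: it had 681 to 719 TPM in cKO and 499 to 567 TPM in WT at 0 h, 251 to 271 TPM in cKO and 180.4 to 205 TPM in WT at 4 h, and 73.6 to 127 TPM in cKO and 52.6 to 87.4 TPM in WT at 8 h. At 24 h Tcf7 had 35.7 to 38.3 TPM in cKO and 62.6 to 77.0 TPM in WT (log2 fold change -0.90, adjusted p = 0.000221). Counts over the whole gene take in exons that Cre leaves in place and cannot test the deletion. The 6 markers of CD8+ T cells (Cd3d, Cd3e, Cd3g, Cd8a, Cd8b1, Cd2) summed to 6059 to 6380 TPM in cKO and 5493 to 5800 TPM in WT at 0 h, and to 1019 to 1123 TPM in cKO and 930.3 to 975 TPM in WT at 24 h. All 6 were called lower than at 0 h at each later time in both genotypes. Between genotypes Cd8a at 8 h and Cd2 at 24 h were called higher in cKO, as were 3 of the 6 averaged over the 4 times. The part of this movement in the members' changes was not tested. The 2 CD4+ T cell markers summed to 2.49 to 89.2 TPM, nearly all of it Cd40lg (Cd4 at most 0.47 TPM), the B cell marker Cd79b had 0.77 to 52.4 TPM, and the 3 NK, 5 monocyte and 4 dendritic cell markers summed to at most 1.17, 2.42 and 6.40 TPM. Of the 2 red cell markers 1 was analysed here, with at most 21.4 TPM, and both neutrophil markers were at 0. At 4 h 1 library stood apart in Irf8: the cKO library of mouse 3 had 286 TPM, where the other cKO libraries had 501 and 519.7 TPM. For Fos (33.9 TPM) and Fosl2 (17.8 TPM) the lowest library at 4 h was that of cKO mouse 1. Calls that change without the 4 h library of mouse 3, or without the 8 h libraries of mice 2 and 5, are given with the gene.

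Levels are given in TPM, which is per transcript length and allows genes to be set side by side, and changes over time or between genotypes as log2 fold changes of TMM-scaled expected counts, with an approximate standard error (SE) and an adjusted p from edgeR's quasi-likelihood test (Benjamini-Hochberg over 11470 genes kept by a filter on low counts, called under 0.05). All 9 members passed that filter. Fosb, Fosl1 and Batf3 passed it only through the times at which they are high. Fosb reached the filter level of 1.32 CPM in 4 of 6 libraries at 4 h and in 0 at 0, 8 and 24 h, Fosl1 in 0 at 0 h and Batf3 in 0 before 24 h. They were tested because of those times, so their calls over time are given as descriptions. Fosb had 109 counts over the 24 libraries, Batf3 248 and Jund 661, while Junb had 73899, so the precision differs widely between members. The same mice were sampled at each time, and fewer transcripts per cell cannot be told apart from a smaller share of cells that express a gene.

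Junb was the most abundant member in each of the 8 groups, and the order of the others changed at each time. At 0 h the order of mean TPM after Junb was Batf, Jun and Fos in both genotypes, although the ranges of Jun and Fos in cKO and of Batf and Jun in WT overlapped. At 8 h Fosl1 stood second, ahead of Batf and Fos, with no overlap between these neighbours in either genotype. At 24 h Batf was again second and Jun next, and Batf3 and Fosl1 both lay above Fos. The 9 RNAs summed to 534 ± 65.0 TPM in cKO and 653 ± 50.2 TPM in WT at 0 h, to 725 ± 47.6 TPM in cKO and 774 ± 11.6 TPM in WT at 4 h, to 525 ± 44.9 TPM in cKO and 487 ± 9.21 TPM in WT at 8 h, and to 439.6 ± 13.1 TPM in cKO and 405 ± 14.3 TPM in WT at 24 h (SD, n = 3 each).

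**Figure D1:**
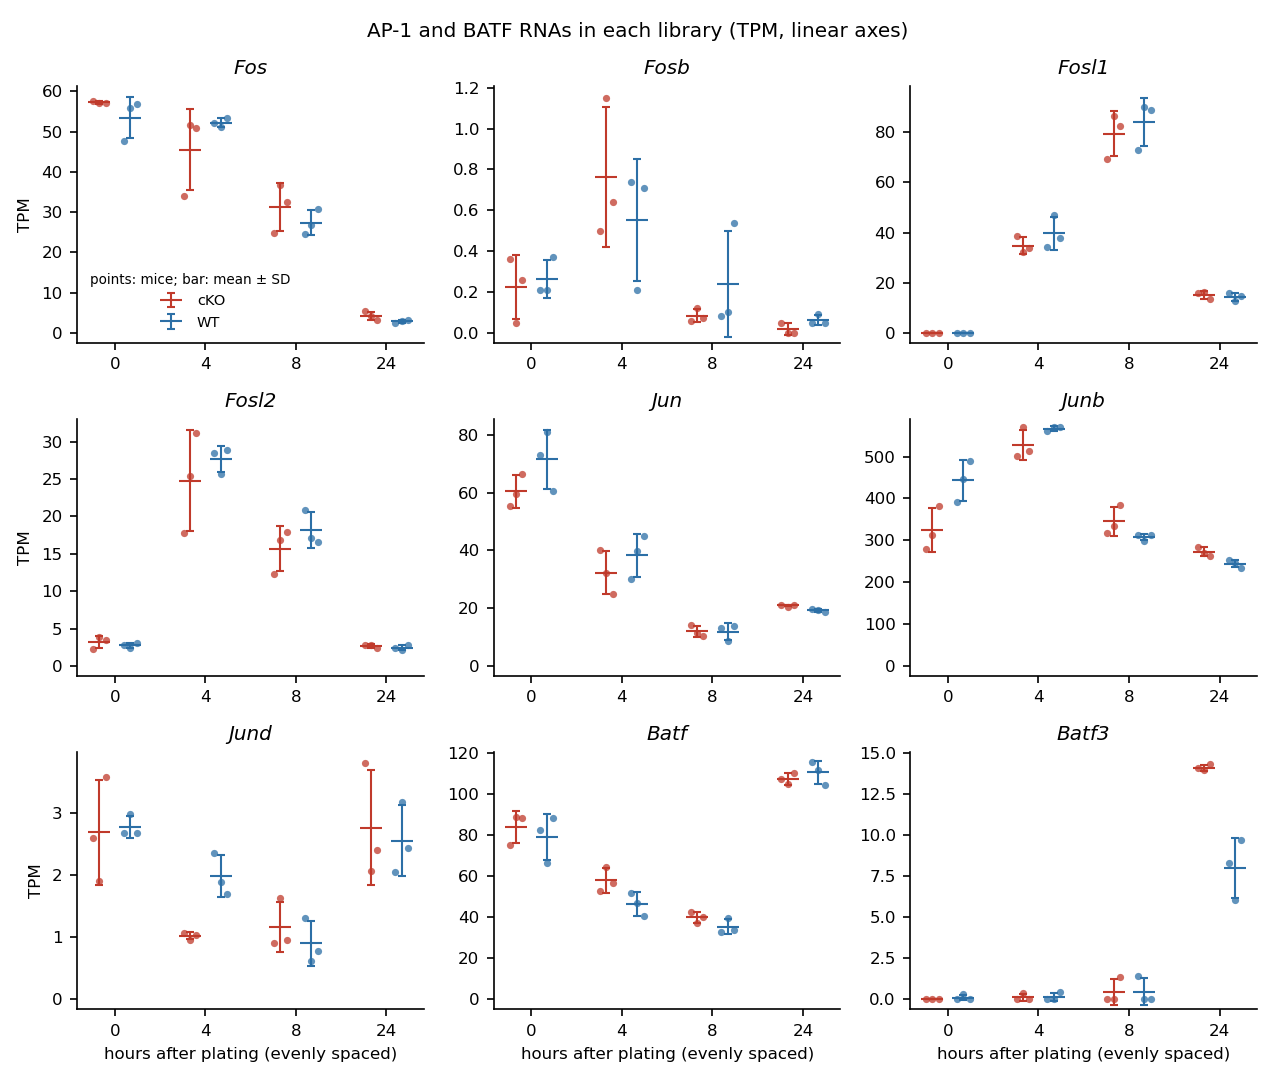
TPM (linear y axes, 1 panel a gene) of the 9 RNAs against hours after plating (0, 4, 8 and 24 h, evenly spaced), cKO left of WT at each time; points are the 3 mice of a group and bars the mean ± SD. Fosl1 is at 0 at 0 h and peaks at 8 h (69.2 to 90.3 TPM), Fosl2 peaks at 4 h (17.8 to 31.2 TPM), and Batf3 is at 6.03 TPM or more only at 24 h.

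The JUN genes encode the partners that the other members need. Junb, whose protein is an AP-1 subunit strongly induced in activated T cells, had 280.3, 313 and 383 TPM in the 3 cKO libraries at 0 h, against 392, 446 and 489.8 TPM in the 3 WT libraries. Every cKO library was below every WT library at that time. At 4 h Junb had 500.2, 569 and 513 TPM in cKO against 561, 569.7 and 570.1 TPM in WT. At 4 h the groups overlapped, and all 6 libraries were above all 6 of 0 h. At 8 h it had 317, 334 and 384 TPM in cKO against 314, 299 and 312 TPM in WT, and at 24 h 285, 269 and 264 TPM in cKO against 253, 246 and 235 TPM in WT. At both of these times every cKO library was above every WT library in TPM, the reverse of 0 h. In TMM-scaled CPM the groups overlapped at 8 h, with 346, 388 and 402 in cKO against 325, 376 and 359 in WT.

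From 0 to 4 h Junb rose in both genotypes, with a log2 fold change of 0.79 in cKO (SE 0.0938, adjusted p = 5.01e-09) and 0.45 in WT (SE 0.0933, adjusted p = 9.29e-05). From 0 to 8 h its log2 fold change was 0.21 in cKO (SE 0.0937, adjusted p = 0.0501; 0.0457 with the mouse as a block, 0.0294 without mouse 3, 0.0391 without mouse 4, and 0.048 without the 4 h library of mouse 3) and it fell in WT, with -0.38 (SE 0.0937, adjusted p = 0.000613). From 0 to 24 h the change was -0.17 in cKO (SE 0.0936, adjusted p = 0.0911; 0.0232 without mouse 1 and 0.031 with only the 2 groups fitted) and -0.81 in WT (SE 0.0941, adjusted p = 9.87e-10). Junb fell between 4 and 8 h (-0.58 in cKO, adjusted p = 5.2e-06; -0.82 in WT, adjusted p = 6.93e-09) and again between 8 and 24 h (-0.38 in cKO, adjusted p = 0.000755; -0.44 in WT, adjusted p = 0.000157).

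Jun, the founding AP-1 subunit, did not share the peak at 4 h. It had 55.2, 59.6 and 66.6 TPM in cKO against 73.1, 80.9 and 60.5 TPM in WT at 0 h, where 1 WT library lay inside the cKO range. At 8 h it had 14.1, 11.5 and 10.45 TPM in cKO against 13.2, 8.62 and 13.9 TPM in WT, and every library at 8 h was below every library at 0 h. Jun fell by 2.19 on the log2 scale from 0 to 8 h in cKO (SE 0.164, adjusted p = 2.92e-12) and by 2.44 in WT (SE 0.164, adjusted p = 2.47e-13). The fall was already present at 4 h, at -0.81 in cKO (adjusted p = 4.89e-05) and -0.81 in WT (adjusted p = 4.53e-05), with 24.96 to 40.0 TPM in cKO and 30.3 to 44.95 TPM in WT. At 24 h Jun had 21.2, 20.6 and 21.1 TPM in cKO against 19.7, 19.3 and 18.8 TPM in WT, a rise from 8 h of 0.75 in cKO (SE 0.167, adjusted p = 0.000418) and 0.60 in WT (SE 0.167, adjusted p = 0.00322; 0.0601 without mouse 5). All 24 h libraries remained below all 4 h libraries.

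The ratio of Junb to Jun TPM therefore widened and narrowed over the day. It was 5.36 ± 0.348 in cKO and 6.33 ± 1.53 in WT at 0 h, 16.9 ± 4.08 in cKO and 15.2 ± 3.01 in WT at 4 h, 29.4 ± 7.17 in cKO and 26.9 ± 6.78 in WT at 8 h, and 13.0 ± 0.493 in cKO and 12.7 ± 0.191 in WT at 24 h (SD, n = 3 each). The ranges of the 2 genotypes overlapped at each of the 4 times. Jund, whose protein is broadly present in resting cells of many tissues, had RNA at 0.62 to 3.81 TPM over all libraries. It was lower at 8 h than at 0 h, at -1.03 on the log2 scale in cKO (SE 0.344, adjusted p = 0.00867; 0.074 without mouse 1 and 0.158 without mouse 3) and -1.51 in WT (SE 0.36, adjusted p = 0.00036), and then rose from 8 to 24 h, by 1.17 in cKO (SE 0.34, adjusted p = 0.00379; 0.166 without mouse 1) and 1.44 in WT (SE 0.355, adjusted p = 0.000734). From 0 to 4 h Jund fell in cKO, with -1.28 (adjusted p = 0.00222) and had a change of -0.38 in WT (adjusted p = 0.324). From 4 to 8 h its change was 0.24 in cKO (adjusted p = 0.662) and -1.14 in WT (adjusted p = 0.0141; 0.0969 without mouse 5, 0.063 without mouse 6, 0.0594 without the 8 h libraries of mice 2 and 5). The interaction of genotype and time at 4 h was not called for Jund, so these paths were not shown to differ.

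The FOS genes had different courses, and the largest share of the family's TPM passed from Fos to Fosl1. Fos, the classic immediate early gene of the family, was high before plating: 57.69, 57.06 and 57.14 TPM in cKO against 47.7, 55.8 and 56.9 TPM in WT at 0 h. In TPM the cKO libraries were all above the WT libraries by a narrow margin. In TMM-scaled CPM they overlapped, with 67.8, 66.6 and 64.7 in cKO against 56.3, 66.4 and 67.6 in WT. At 4 h it had 33.9, 51.6 and 50.9 TPM in cKO against 52.1, 51.1 and 53.3 TPM in WT, with a log2 fold change from 0 h of -0.25 in cKO (SE 0.147, adjusted p = 0.146) and 0.06 in WT (SE 0.147, adjusted p = 0.755). Only the cKO library of mouse 1 stood below the range of the other 5 at 4 h. No time between 0 and 4 h was analysed here, so an earlier peak would not be seen. The part of tissue dissociation and sorting in the Fos and Jun levels at 0 h was not tested. At 8 h Fos had 24.7, 36.6 and 32.4 TPM in cKO against 24.5, 26.8 and 30.8 TPM in WT, and at 24 h 5.31, 4.15 and 3.27 TPM in cKO against 2.52, 2.85 and 3.05 TPM in WT. From 0 to 24 h it fell by 3.68 on the log2 scale in cKO (SE 0.182, adjusted p = 1.09e-18) and by 4.21 in WT (SE 0.194, adjusted p = 1.46e-19). This was the deepest fitted fall from 0 to 24 h among the members in both genotypes. In cKO the fitted change of Fosb was -3.27 (approximate 95% interval -5.55 to -0.99), so its order with Fos is not settled there. Most of the fall of Fos came after 8 h, with -2.93 in cKO (adjusted p = 5.09e-15) and -3.40 in WT (adjusted p = 4.55e-16) between 8 and 24 h.

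Fosl1, which encodes FRA1 and is known as a later AP-1 target gene, had 0 counts in all 6 libraries of 0 h. At 4 h it had 38.5, 32.1 and 33.9 TPM in cKO against 34.2, 47.1 and 37.8 TPM in WT. At 8 h it had 69.2, 86.4 and 82.7 TPM in cKO against 73.0, 90.3 and 89.1 TPM in WT, the highest level of any FOS gene in any group. All 6 libraries of 8 h were above all 6 of 4 h, and the genotypes overlapped at both times. With the 0 h group set to a floor of 3 summed counts, Fosl1 was at least 317-fold higher at 4 h and 743-fold higher at 8 h in cKO, and at least 305-fold and 692-fold higher in WT. It rose by 1.23 on the log2 scale between 4 and 8 h in cKO (SE 0.143, adjusted p = 2.74e-08) and by 1.16 in WT (SE 0.142, adjusted p = 5.86e-08). At 24 h 15.7, 16.4 and 13.5 TPM were left in cKO and 15.9, 12.7 and 14.5 TPM in WT, a change from 8 h of -2.43 in cKO (adjusted p = 3.56e-15) and -2.67 in WT (adjusted p = 3.08e-16), still at least 138-fold in cKO and 107-fold in WT above 0 h. The overlapping gene Ccdc85b had 9.21 to 10.85 TPM at 24 h, and the part of shared bases in the Fosl1 values was not tested.

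Fosl2, which encodes FRA2, was transient. It had 2.33, 3.82 and 3.54 TPM in cKO against 2.76, 2.44 and 3.05 TPM in WT at 0 h, and 17.8, 25.4 and 31.2 TPM in cKO against 28.5, 25.6 and 28.8 TPM in WT at 4 h. Fosl2 rose by 3.03 on the log2 scale in cKO (SE 0.179, adjusted p = 7.9e-15) and by 3.44 in WT (SE 0.186, adjusted p = 9.43e-16), and all 6 libraries of 4 h were above all 6 of 0 h. It then fell between 4 and 8 h, with -0.62 in cKO (adjusted p = 0.00216) and -0.56 in WT (adjusted p = 0.00438; 0.0561 without mouse 4 and 0.0796 without mouse 6), and between 8 and 24 h, with -2.62 in cKO (adjusted p = 5.24e-13) and -2.99 in WT (adjusted p = 2.45e-14). At 24 h its levels of 2.35 to 2.83 TPM in cKO and 2.14 to 2.77 TPM in WT overlapped those of 0 h, and the change from 0 h was -0.20 in cKO (SE 0.202, adjusted p = 0.37; 0.0239 without mouse 1) and -0.11 in WT (SE 0.212, adjusted p = 0.649).

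Fosb, an immediate early paralogue of Fos, stayed at or below 1.15 TPM in every library. Its levels at 4 h were 0.50, 1.15 and 0.64 TPM in cKO against 0.74, 0.21 and 0.71 TPM in WT. At 0 h they were 0.05 to 0.36 TPM in cKO and 0.21 to 0.37 TPM in WT, so that 1 WT library of 4 h lay within the range of 0 h. Fosb was tested only because of its 4 h libraries, so the following calls describe that time and support no more. The change from 0 to 4 h was called in cKO (1.86, SE 0.659, adjusted p = 0.0159; 0.378 without mouse 2) and not in WT (1.18, SE 0.693, adjusted p = 0.142). It rests on 36 counts at 4 h and 13 at 0 h in cKO, and on 25 and 13 in WT. Between 4 and 8 h in cKO its log2 fold change was -3.04 (SE 0.816, adjusted p = 0.00272), with 4 counts at 8 h. At 24 h in cKO it had 1 count, against 13 at 0 h (adjusted p = 0.0114), a ratio of 0.0737 (exact 95% binomial interval 0.00173 to 0.490).

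Shares of the FOS family's summed TPM changed with time. At 4 h the share of Fos was lower than at 0 h, although the change of Fos itself was not called in either genotype. Fos held 94.3% ± 1.06 in cKO and 94.6% ± 0.720 in WT at 0 h, 42.6% ± 4.82 in cKO and 43.5% ± 2.01 in WT at 4 h, 24.6% ± 1.45 in cKO and 21.1% ± 1.30 in WT at 8 h, and 19.1% ± 2.76 in cKO and 14.4% ± 2.09 in WT at 24 h. Fosl1 held 0% at 0 h, 33.5% ± 7.76 in cKO and 33.0% ± 4.41 in WT at 4 h, 63.0% ± 1.86 in cKO and 64.6% ± 2.83 in WT at 8 h, and 68.9% ± 2.74 in cKO and 72.8% ± 2.72 in WT at 24 h. Fosl2 held its largest share at 4 h, 23.1% ± 3.59 in cKO and 23.1% ± 2.14 in WT (SD, n = 3 each). Thus in TPM a family that was nearly all Fos before plating was mostly Fosl1 from 8 h on, in both genotypes. In TMM-scaled CPM, which is not per length, Fosl1 was not a majority in any library of 8 h. There it had 69.9, 92.7 and 79.8 in cKO and 69.7, 105 and 94.6 in WT. Fosl2 had 44.6, 65.3 and 62.4 in cKO and 72.2, 71.6 and 63.3 in WT. Fos had 31.1, 48.9 and 38.9 in cKO and 29.1, 38.7 and 40.7 in WT. The part of bases shared with Ccdc85b in the Fosl1 share was not tested.

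**Figure D2:**
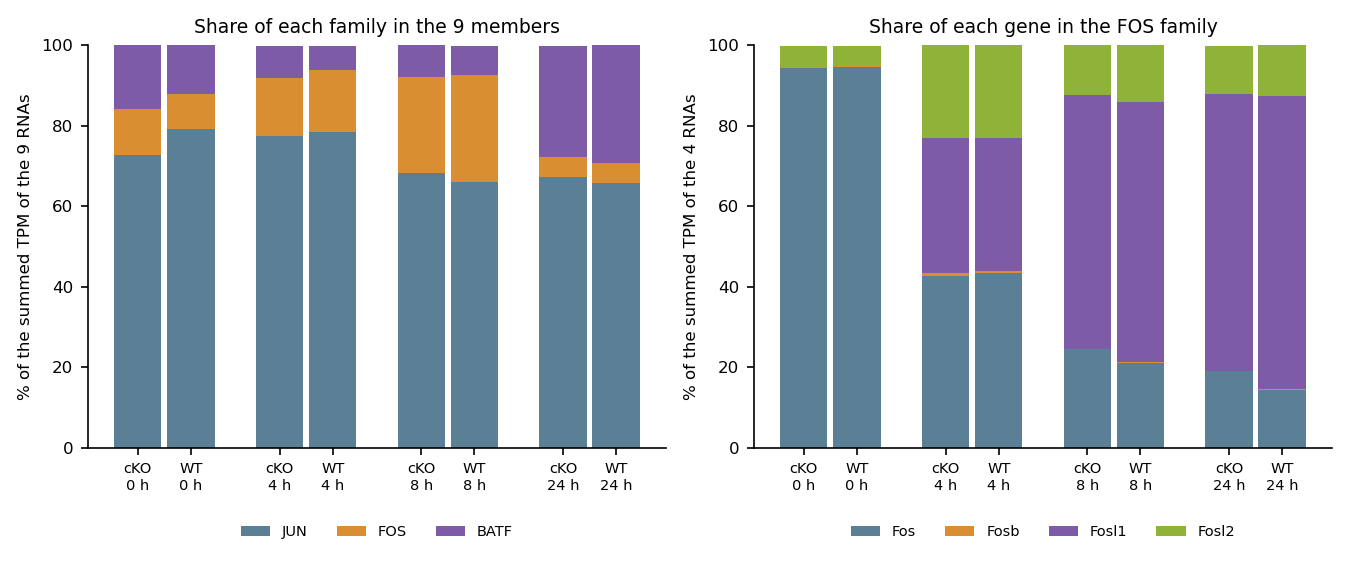
Mean share (%, y axes from 0 to 100) of the JUN, FOS and BATF families in the summed TPM of the 9 RNAs (left) and of the 4 FOS genes in the summed TPM of their family (right), for cKO and WT at 0, 4, 8 and 24 h, 3 libraries a bar. The FOS share is greatest at 8 h (24.1% in cKO, 26.7% in WT) and the BATF share at 24 h (27.6% in cKO, 29.3% in WT; 13.7% in cKO and 14.8% in WT from TMM-scaled CPM).

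Across the 3 families, JUN RNAs, mostly Junb, held 72.7% ± 2.18 of the summed TPM in cKO and 79.2% ± 1.56 in WT at 0 h and 67.4% ± 0.716 in cKO and 65.9% ± 0.529 in WT at 24 h. The FOS share was 11.5% ± 1.32 in cKO and 8.65% ± 0.251 in WT at 0 h, 24.1% ± 2.37 in cKO and 26.7% ± 1.78 in WT at 8 h and 5.02% ± 0.509 in cKO and 4.87% ± 0.425 in WT at 24 h. The BATF share was 7.71% ± 0.972 in cKO and 7.36% ± 0.716 in WT at 8 h and 27.6% ± 1.15 in cKO and 29.3% ± 0.167 in WT at 24 h (SD, n = 3 each). From TMM-scaled CPM, which is not per length, the BATF share was lower, at 3.38% in cKO and 3.16% in WT at 8 h and 13.7% in cKO and 14.8% in WT at 24 h. At 0 h the FOS share was higher and the JUN share lower in every cKO library than in every WT library. The shares are parts of 1 sum, so these are not separate differences. At 0 h Junb, the largest part, had 326 ± 52.4 TPM in cKO and 443 ± 48.9 TPM in WT. Fos had 57.3 ± 0.343 TPM in cKO and 53.5 ± 5.04 TPM in WT, and was not called (edgeR, adjusted p = 0.973).

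Batf and Batf3 encode small zipper proteins that lack the transactivation domain of c-FOS and FOSB. Batf had 74.9, 88.7 and 88.3 TPM in cKO against 82.5, 66.4 and 88.1 TPM in WT at 0 h. It fell to 52.7, 64.3 and 56.5 TPM in cKO and to 51.7, 46.8 and 40.4 TPM in WT at 4 h, and was lowest at 8 h with 42.4, 37.1 and 39.9 TPM in cKO against 32.7, 39.4 and 33.9 TPM in WT. At 24 h all 6 libraries were above all 6 of 0 h, with 107, 105 and 110.0 TPM in cKO against 115, 112 and 104 TPM in WT. From 0 to 8 h Batf fell by 0.96 on the log2 scale in cKO (SE 0.138, adjusted p = 1.32e-07) and by 1.01 in WT (SE 0.14, adjusted p = 6.46e-08). Between 8 and 24 h it rose by 1.39 in cKO (SE 0.136, adjusted p = 6.78e-11) and 1.53 in WT (SE 0.137, adjusted p = 6.26e-12), which left it above 0 h by 0.43 in cKO (adjusted p = 0.00271) and 0.52 in WT (adjusted p = 0.000428). The step from 4 to 8 h was called in cKO (-0.50, adjusted p = 0.00468; 0.127 without mouse 2) and not in WT (-0.32, adjusted p = 0.0746; 0.0251 without mouse 5, 0.0152 without the 8 h libraries of mice 2 and 5, and 0.0343 with Rn45s removed).

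Batf3, best known for its part in the development of cross-presenting dendritic cells, was a late RNA here. Before 24 h it had a count in only 5 of 18 libraries and 9 counts in all. At 24 h it had 14.1, 14.0 and 14.3 TPM in cKO against 8.28, 6.03 and 9.70 TPM in WT, and every cKO library was above every WT library. In cKO the 152 counts of 24 h were at least 48.5-fold above the floor of 3 counts for the group at 0 h, which had none. In WT 87 counts at 24 h stood against 1 at 0 h, a ratio of 67.8 (exact 95% binomial interval 11.8 to 2707, which covers counting error only). The bound in cKO and this ratio are different quantities and give no order of the genotypes. From 8 to 24 h the ratio was 35.4 in cKO (11.9 to 173) and 20.6 in WT (6.83 to 102). At 24 h the 4 dendritic cell markers summed to 0.30 to 0.51 TPM in cKO and 0.19 to 0.35 TPM in WT, with Siglech and Clec9a at 0 in all 6 libraries.

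Between any 2 times a large part of all RNAs differed, and the members are to be read against that. From 0 to 4 h, 57.2% of all genes tested were called in cKO (29.6% higher, 27.6% lower), beside 7 of 9 members (4 higher, 3 lower), and 59% in WT (30% higher, 29.1% lower), beside 5 members (3 higher, 2 lower). From 0 to 8 h, 65.6% were called in cKO (33.1% higher, 32.4% lower), beside 6 members (2 higher, 4 lower), and 67.4% in WT (33.4% higher, 34% lower), beside 7 members (2 higher, 5 lower). From 0 to 24 h, 76.3% were called in cKO (37.3% higher, 39% lower) and 77% in WT (36.9% higher, 40.1% lower), beside 6 members in each (3 higher, 3 lower). These counts include Fosb, Fosl1 and Batf3, which had to differ between times to be tested.

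From 4 to 8 h, 40.4% of genes were called in cKO (20.8% higher, 19.6% lower), beside 7 members (1 higher, 6 lower), and 41.6% in WT (21.9% higher, 19.7% lower), beside 6 members (1 higher, 5 lower). The 1 member that rose in that step was Fosl1 in both genotypes. Fosb, among the 6 lower members in cKO, passed the filter only through its 4 h libraries, so its fall was built into that choice. The median log2 change of the members in that step was -0.50 in cKO and -0.82 in WT, beside -0.01 in cKO and 0.01 in WT over all genes tested. These member medians include Fosb and Batf3. From 8 to 24 h, 57.3% were called in cKO (25.2% higher, 32.1% lower) and 58.7% in WT (24.7% higher, 34.1% lower), beside 8 members in each. In both genotypes Jun, Jund, Batf and Batf3 rose and Fos, Fosl1, Fosl2 and Junb fell in that last step. Batf3 passed the filter only through its 24 h libraries, so its rise was built into that choice.

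The genotype comparison asks whether these RNAs differ in cells with the Tcf7 cKO genotype. At 0 h, 0.445% of all genes were called (0.314% higher and 0.131% lower in cKO), and 1 of the 9 members, Junb, was called. Junb was lower in cKO, with a log2 fold change of -0.48 (SE 0.0936, approximate 95% interval -0.67 to -0.30, adjusted p = 0.0071), in 3 of 3 cKO libraries against all 3 WT libraries. Without a test, TPM had no overlap between genotypes for Junb (lower in cKO, as for 4.87% of all genes) and Fos (higher in cKO, as for 9.58%). The call was not kept when 1 mouse was left out in 3 of 6 cases, with an adjusted p of 0.142 without mouse 1, 0.0545 without mouse 5 and 0.167 without mouse 6, nor when only the 2 groups were fitted (adjusted p = 0.110). Over the 15 alternatives its adjusted p ran between 9.1e-04 and 0.167 and its log2 fold change between -0.57 and -0.39. Of 15 other immediate early and handling-responsive genes (Egr1, Egr2, Egr3, Ier2, Ier3, Ier5, Dusp1, Zfp36, Nfkbia, Nr4a1, Btg2, Klf6 and the heat shock genes Hspa1a, Hspa1b and Dnajb1), none was called at 0 h and their median log2 fold change was -0.18, beside -0.00 over all genes tested. Such genes respond to tissue dissociation and sorting, and their part in the Junb difference was not tested. The B cell marker Cd79b had 48.0 ± 6.16 TPM in cKO and 33.5 ± 1.79 TPM in WT at 0 h (SD, n = 3 each), without overlap, and the part of other cells in the Junb difference was not tested either.

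At the later times no member was called between genotypes. Of all genes, 0.82% were called at 4 h (0.436% higher, 0.384% lower in cKO), 0.183% at 8 h (0.148% higher, 0.0349% lower) and 0.105% at 24 h (0.0959% higher, 0.00872% lower). In edgeR's test 1 of the 9 members had an unadjusted p under 0.05 at 4 h, 0 at 8 h and 1 at 24 h. Of the 11470 genes tested, 1354 had such a p at 4 h, 1139 at 8 h and 423 at 24 h. DESeq2 and limma on log2 TPM also called 0 members at these times. At 4 h Jund had 1.07, 0.96 and 1.04 TPM in cKO against 2.36, 1.89 and 1.70 TPM in WT. The cKO libraries were all below the WT libraries, and the log2 fold change was -1.0 (interval -1.73 to -0.27, adjusted p = 0.242) on 36 counts in cKO and 67 in WT. In TPM, Batf at 4 h was higher in every cKO library than in every WT library (0.27, interval -0.00 to 0.55, adjusted p = 0.451). In TMM-scaled CPM the lowest cKO library of Batf (25.8) lay below the highest WT library (26.8). At 4 h, TPM without overlap was lower in cKO for 5.81% of all genes and higher for 10.5%. At 8 h Junb alone among the members had no overlap in TPM, higher in cKO as for 5.82% of all genes, although its TMM-scaled CPM overlapped. At 24 h Fos, Jun, Junb and Batf3 were each higher in every cKO library than in every WT library, and 7.24% of all genes tested showed the same at that time. Of these 4, Fos had the log2 fold change 0.60 (interval 0.13 to 1.07), Batf3 0.82 (-0.05 to 1.70), Junb 0.16 (-0.03 to 0.34) and Jun 0.12 (-0.19 to 0.43), all with an adjusted p of 1.

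Where the test made no call, the intervals still bound the differences. For Fosl1 the log2 fold change of cKO over WT was -0.23 at 4 h (interval -0.52 to 0.06), -0.15 at 8 h (-0.42 to 0.11) and 0.08 at 24 h (-0.23 to 0.40). For Fosl2 it was -0.21 (-0.51 to 0.09) at 4 h and -0.27 (-0.58 to 0.05) at 8 h. For Jun it was -0.28 (-0.56 to 0.01) at 0 h and -0.28 (-0.58 to 0.02) at 4 h. Fosb and Batf3 before 24 h had too few counts for a useful bound, with intervals more than 2 log2 units wide. Averaged over the 4 times for each mouse and tested with limma over the 6 mice, no member was called, beside 1.51% of all genes (1.1% higher, 0.41% lower in cKO). The extremes of that time-averaged difference were -0.24 for Fosb and 0.14 for Batf3, and Junb had -0.09 (adjusted p = 0.50).

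**Figure D3:**
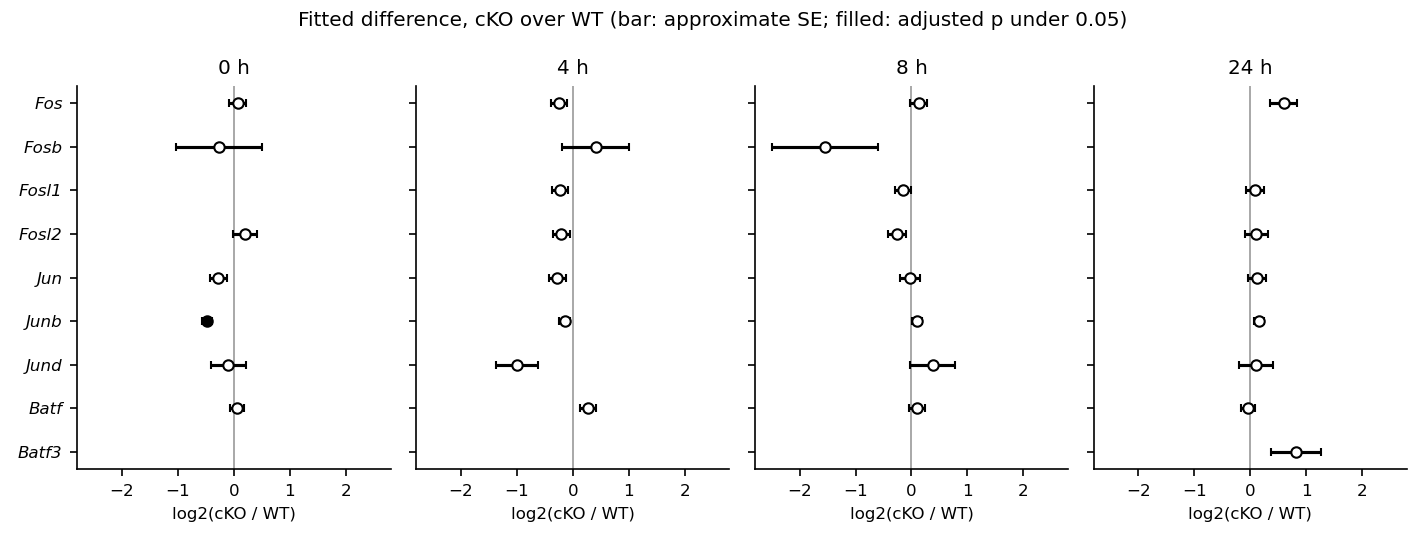
Fitted log2 difference of cKO over WT (x axes) for each member (rows) at 0, 4, 8 and 24 h; points are estimates, bars ± 1 approximate SE, and filled points have an adjusted p under 0.05. Members with 3 or fewer summed counts in either group are not drawn. Only Junb at 0 h (-0.48) is filled.

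Junb had the smallest adjusted p among the members for a difference between genotypes in the change from 0 h, and it was not called. Each mouse can be set against its own 0 h library, on the scale of log2(CPM + 0.5). At 8 h Junb had moved by 0.27, 0.28 and 0.09 in the 3 cKO mice and by -0.32, -0.30 and -0.50 in the 3 WT mice. All cKO mice were above their own start and all WT mice below theirs, as for 0.697% of all genes, where every mouse of 1 genotype went against every mouse of the other. The moves at 24 h came to 0.08, -0.17 and -0.40 in cKO, and -0.60, -0.80 and -1.02 in WT, again without overlap. Moves without overlap were common: they were found for 11.9% of all genes at 4 h, 11.2% at 8 h and 11.9% at 24 h. Among the members they were those of Fosl2 and Jund at 4 h, of Fosl2 and Junb at 8 h, and of Fos, Jun, Junb and Batf3 at 24 h. At 24 h Jun had moved by -1.32, -1.47 and -1.51 in cKO and by -1.84, -1.99 and -1.63 in WT. The interaction of genotype and time was 0.34 at 4 h (SE 0.132, adjusted p = 0.626), 0.58 at 8 h (SE 0.132, interval 0.32 to 0.84, adjusted p = 0.130; 0.0192 with DESeq2 and 0.0289 without the filter) and 0.64 at 24 h (SE 0.132, interval 0.38 to 0.90, adjusted p = 0.0734; 0.0400 with the mouse as a block, 0.0191 with DESeq2, 0.0149 without the filter, 0.0319 without mouse 3 and 0.0442 without mouse 4). In edgeR's test without the block 0 of the 9 members were called for an interaction, beside 0.00872% of all genes at 4 h, 0.00872% at 8 h and 0.0174% at 24 h. At each of the 3 times 1 member had an unadjusted p under 0.05. Of the 11470 genes tested, 816 had such a p at 4 h, 912 at 8 h and 492 at 24 h. The 3 interactions share the 0 h libraries with the Junb difference at 0 h and are not independent of it.

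**Figure D4:**
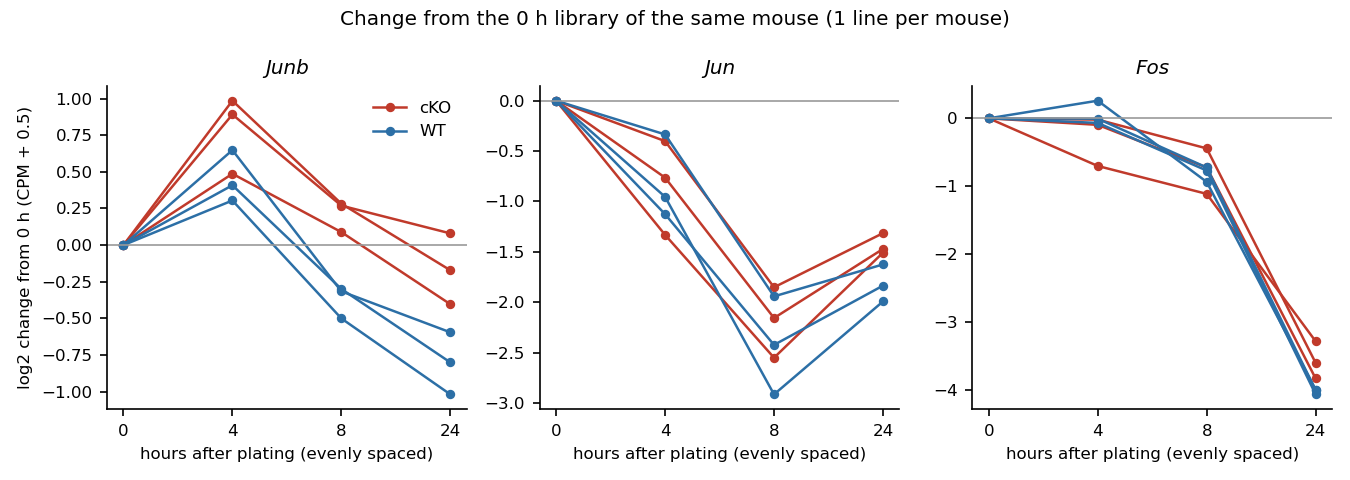
Change of Junb, Jun and Fos from the 0 h library of the same mouse, on the scale of log2(CPM + 0.5), against hours after plating (evenly spaced), 1 line for each of 3 cKO and 3 WT mice. For Junb the cKO lines (0.09 to 0.28) and the WT lines (-0.50 to -0.30) lie on either side of 0 at 8 h; for Jun and Fos the genotypes overlap at 4 and 8 h and not at 24 h.

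The genes that work with AP-1 were followed in lists chosen with earlier results of these data known. Irf4 and Irf8, the partners of BATF:JUN pairs, were both called higher at each later time in both genotypes, and neither was called between genotypes. Irf4 had 1.99 ± 1.32 TPM in cKO and 0.933 ± 0.366 TPM in WT at 0 h, 371 ± 77.5 TPM in cKO and 347 ± 19.6 TPM in WT at 4 h, and 105 ± 2.42 TPM in cKO and 102 ± 1.59 TPM in WT at 24 h. Irf8 had 1.35 ± 1.67 TPM in cKO and 1.40 ± 0.656 TPM in WT at 0 h, 436 ± 130 TPM in cKO and 537 ± 33.7 TPM in WT at 4 h, and 301 ± 15.0 TPM in cKO and 291 ± 6.14 TPM in WT at 24 h (SD, n = 3 each). Batf thus fell at 4 h while the RNAs of its IRF partners rose.

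Of 15 other leucine zipper genes, 13 were tested. None was called between genotypes at any time. The median change from 0 to 4 h was 1.44 in cKO and 1.24 in WT, beside -0.00 in cKO and -0.04 in WT over all genes. Atf3 had at most 0.1 TPM at 0 h and passed the filter only through later times. From 0 to 4 h 11 genes of the list rose and 0 fell in cKO, beside 29.6% higher and 27.6% lower of all genes. In WT 9 rose and 0 fell, beside 30% higher and 29.1% lower of all genes. They included Atf3, a stress-induced partner of JUN proteins, with 33.1 ± 2.35 TPM in cKO and 38.45 ± 5.05 TPM in WT at 4 h and 1 count in each group at 0 h, the cAMP response factor Crem (2.89 in cKO and 3.25 in WT), Mafk (1.23 in cKO and 1.24 in WT) and Bach2 (1.44 in cKO and 0.98 in WT), whose protein competes with AP-1 for its sites. From 8 to 24 h 2 rose and 9 fell in each genotype. Jdp2 had 0 to 0.35 TPM, was not kept by the filter and was at 0 in every WT library at 4, 8 and 24 h, although its neighbours Fos and Batf were both above 20 TPM at 4 and 8 h.

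The MAP kinase and serum response list (17 genes, all tested) had 0 called between genotypes and moved in both directions with time: from 0 to 4 h 2 rose and 5 fell in cKO, and 5 rose and 5 fell in WT. Mapk14, which encodes p38α, fell (-1.72 in cKO and -1.35 in WT), as did Mkl1, an SRF coactivator (-0.68 in cKO and -0.86 in WT) and Map4k1 (-0.54 in cKO and -0.62 in WT). Map3k5 rose (1.21 in cKO and 1.10 in WT). The other immediate early genes, again 15, had 9 higher and 4 lower from 0 to 4 h in cKO and 9 higher and 3 lower in WT. Nr4a1, the orphan receptor NUR77, had 13.8 ± 2.89 TPM in cKO and 17.7 ± 2.85 TPM in WT at 0 h and 1734 ± 232 TPM in cKO and 1871 ± 49.4 TPM in WT at 4 h. Over both genotypes Dusp1 had 76.0 to 132 TPM at 0 h and 36.5 to 51.7 TPM at 4 h. Zfp36 had 85.5 to 152 TPM at 0 h and 60.0 to 79.1 TPM at 4 h. Ier3 was the only gene of that list called between genotypes, lower in cKO at 4 h (78.4 ± 15.4 TPM in cKO and 162 ± 9.43 TPM in WT, log2 fold change -1.10, adjusted p = 1.01e-05) and at 8 h (31.0 ± 9.03 TPM in cKO and 53.8 ± 1.96 TPM in WT, -0.88, adjusted p = 0.00523).

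Among 9 T cell genes with known AP-1 or NFAT:AP-1 elements, 7 were tested, and 6 rose from 0 to 4 h in each genotype. Of all genes tested, 29.6% in cKO and 30% in WT were called higher in that step. At 0 h Il2, Il3, Ifng and Il2ra had at most 0.69 TPM. Genes that low at 0 h are tested mostly because of later times, so their rise was largely built into that choice. Of the untested genes, Il4 was at 0 TPM in every library and Csf2 had at most 0.74 TPM. Il2ra rose by 8.00 in cKO and 8.21 in WT, Tnf by 7.29 in cKO and 6.59 in WT, and Cd69 by 3.57 in cKO and 3.74 in WT. Between genotypes, Fasl was higher in cKO at each of the 4 times, with 13.1 ± 2.15 TPM in cKO and 0.293 ± 0.292 TPM in WT at 0 h (log2 fold change 5.44, adjusted p = 2.49e-12) and 4.87 ± 0.384 TPM in cKO and 0.623 ± 0.134 TPM in WT at 24 h (2.96, adjusted p = 2.43e-06). Ifng was higher in cKO at 4 h (461 ± 54.7 TPM in cKO and 243 ± 36.0 TPM in WT, 0.88, adjusted p = 0.0335) and at 24 h (274 ± 57.7 TPM in cKO and 128 ± 21.1 TPM in WT, 1.09, adjusted p = 0.0268). Among the members, only Junb at 0 h was called between genotypes, lower in cKO. The part of AP-1 or BATF factors in the Fasl and Ifng differences was not tested.

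The pattern of each member was set beside all genes that passed the filter and reached a mean of 10 TPM in some group, by Pearson's r of log2 CPM over the 24 libraries. These values are descriptions, since libraries of 1 time and 1 mouse share their source. Nearest to Fos were Pld3 (r = 0.986), Ist1 (0.983) and Slfn1 (0.980), nearest to Fosl1 were Pdcd11 (0.995), Nomo1 (0.994) and Atf3 (0.993), and nearest to Fosl2 were Arih2 (0.989), Tagap (0.987) and Kdm6b (0.987). Nearest to Jun were S100a13 (0.971), Clic1 (0.966) and Ilk (0.964), and to Junb Mxd1 (0.953), Stau1 (0.944) and Vasp (0.927). Batf ran with Haus5 (0.954), Rpa1 (0.953) and Gpx4 (0.950) and Batf3 with Rad51ap1 (0.964), Troap (0.961) and Ttk (0.957). For the low RNAs Fosb (Sin3a, 0.879) and Jund (Nrm, 0.857) the likeness was weaker. Among the members themselves the most opposed pair was Fos and Batf3 (r = -0.939), followed by Fosl2 and Batf (-0.840) and Fosl1 and Jun (-0.807), and the most alike were Fosb and Junb (0.795) and Fos and Junb (0.731). Batf3 had few counts before 24 h and passed the filter only through that time. Its r values thus mostly set 24 h against the earlier times. Fosb and Fosl1 also passed only through the times at which they are high.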

How the data were processed

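Bulk Smart-seq2 RNA libraries of 1000 sorted CD8+ T cells were deposited as 1 gene table a library. Per the submitters' processing notes, STAR, RSEM and DESeq2 were used with the build mm10, and their versions and the gene models were not given in the sources used here. Each deposited table holds RSEM expected counts, TPM and FPKM, per the file headers, of which FPKM was left out. Expected counts, rounded to integers, entered edgeR 4.0.16 (R 4.3.3) with TMM scaling, filterByExpr over the 8 groups, 1 robust quasi-likelihood model over 24 libraries, two-sided, Benjamini-Hochberg over 11470 genes. SE is the log2 fold change over the root of F, and the approximate 95% intervals use a normal quantile. Differences averaged over time used limma 3.58.1 on 6 mouse means of log2 CPM (prior count 2). DESeq2 1.42.0, RLE size factors, no filter, limma on log2(TPM + 1) and log2(TPM + 0.1), Rn45s removed, only the groups compared, the mouse as a block (also as a random block with limma voom, for the time-averaged difference) and leaving out each mouse were alternatives. Leaving out the 4 h library of mouse 3, or the 8 h libraries of mice 2 and 5, was chosen after seeing the data. Python 3.11.15, pandas 2.3.3 and matplotlib 3.10.9 made the levels and figures.

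The labels give the same mice at every time, which pairs the libraries of a genotype over time. The deviations of libraries of 1 mouse from their group means correlated by -0.08 to 0.16 over genes (36 pairs, median 0.02). Mice differ between genotypes, so genotype comparisons have no pairing. Whether times of 1 mouse were separate wells is not stated, and p-values cover the spread between these libraries. The named genes were the 9 members, Tcf7, Jdp2, up to 4 called genes of a list with the smallest adjusted p, and the 3 genes most like each member. The members and lists were chosen with earlier results of these data known. On simulated data, edgeR's test was checked for cKO against WT at 0 and 24 h, and limma for the time-averaged difference. The interactions and the alternative methods were not checked on simulated data.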

Additional observations from a re-analysis of the deposited data

Results flagged for a closer look

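The change of Junb from 0 to 8 h had opposite signs in the mice of the 2 genotypes, although neither the change in cKO (0.21, adjusted p = 0.0501) nor the difference between the changes was called. On the scale of log2(CPM + 0.5) the moves were 0.27, 0.28 and 0.09 in the 3 cKO mice and -0.32, -0.30 and -0.50 in the 3 WT mice, and it is listed here because every cKO mouse went up and every WT mouse went down, as for 0.697% of all genes. The interaction of genotype and time in edgeR's quasi-likelihood test was 0.58 (adjusted p = 0.130), and over the 15 alternatives its adjusted p ran between 0.0192 and 0.442. The Junb level at 0 h (280.3, 313 and 383 TPM in cKO, against 392, 446 and 489.8 TPM in WT) enters this change.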

How the results depend on the processing

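Of 162 member results, 67 were called, 57 of these were kept under every alternative and 10 were lost under at least 1, while 7 uncalled results were called under at least 1. No called result turned its direction, and 41 uncalled results changed sign without being called. The number of members called between genotypes at 0 h was 1, and 0 with only the 2 groups compared, with a range of 0 to 1 when 1 mouse was left out. For the interaction at 8 h it was 0, and 1 (Junb) without the filter on low counts (adjusted p = 0.0289) and with DESeq2 (0.0192). For the interaction at 24 h it was 0, and 1 (Junb) without the filter (0.0149), with DESeq2 (0.0191) and with the mouse as replicate block (0.0400), with a range of 0 to 1 when 1 mouse was left out (0.0319 without mouse 3, 0.0442 without mouse 4). The cause of these changes was not tested. Of the other results, the block changed only the call of Junb from 0 to 8 h in cKO (0.0457). Called results lost under an alternative and not given with their gene above were Fos from 4 to 8 h in cKO (0.0524 with only the 2 groups, 0.0823 without mouse 3) and Fosb from 0 to 24 h in cKO (0.148 with limma on log2(TPM + 1), 0.0833 without mouse 3). Fosb from 8 to 24 h in WT was called only without mouse 5 (0.0488) or without the 8 h libraries of mice 2 and 5 (0.0391). With limma on log2 TPM, Junb from 0 to 24 h in cKO (0.0175 with a pseudocount of 1, 0.0182 with 0.1) and Batf from 4 to 8 h in WT (0.0062 and 0.0063) were called. On the CPM scale, which is not per length, 22 of 24 family shares moved by over 1 SD, and the BATF share at 24 h was 13.7% in cKO and 14.8% in WT. Without the filter the median of all genes moved by -0.27 in cKO and -0.44 in WT from 0 to 24 h, and calls at that time are relative to it. Fosb had 109 counts in all, and the intervals of its differences between genotypes were over 2 log2 units wide.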
